A study of Homo sapiens with 24 samples.

Results

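RT-112 is a human bladder cancer cell line of urothelial origin. Its derivative with high CD44v6, labelled RT-112 CD44v6, was compared with the parental cells across all genes. The members were every gene symbol of the deposited table, of which 15645 of 35993 passed a filter on low counts and were tested. Each group held 3 libraries, given as biological replicates, and these 6 are among 24 libraries of RT-112 and a second bladder cancer line, J82. Both lines also have derivatives labelled CD44 Low and CD44 High, named for the level of the receptor. The parental libraries carry the label control for CD44 and for CD44v6. The labels do not say how the derivatives were made, whether each is 1 clone, or how long it had been grown apart from the parental cells, and no treatment is given for either group.

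CD44 is a surface glycoprotein that binds hyaluronan, and its transcript is spliced with varying sets of internal exons. Isoforms that hold variant exon v6 can bind growth factors and present them to receptor tyrosine kinases such as MET, whose signal runs through RAS and the kinase ERK to the nucleus. ERK signalling switches on the immediate-early genes, which encode transcription factors such as FOS and feedback inhibitors such as the DUSP phosphatases, within minutes and without new protein synthesis.

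CD44, the gene the groups are named for, stood at 316, 347 and 292 CPM (a gene's share of its scaled library, on one common scale for all libraries) in the 3 parental libraries. The 3 CD44v6 libraries held 502, 436 and 372 CPM. The groups did not overlap, but the difference of 0.46 on the log2 scale (SE 0.15) missed the threshold (adjusted p = 0.163). The test was edgeR's quasi-likelihood test over the 12 RT-112 libraries, with p adjusted by Benjamini-Hochberg over all genes, and genes with an adjusted p below 0.05 are said to be called. With the 6 libraries of the 2 groups alone the adjusted p was 0.0326, and with DESeq2 it was 0.0504. A count per gene covers all CD44 isoforms, so the level of exon v6 itself was not measured. In bulk RNA of this kind, more cells with the transcript and more of it per cell cannot be told apart. CD44 exons overlap the antisense gene CD44-AS1, and whether counting used strand is not given in the sources used here.

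Both groups had the transcripts of an epithelial line, with most but not all genes of the urothelial lists. All 20 basal and 18 of 20 luminal urothelial genes passed the filter on low counts. The luminal genes UPK3A, a uroplakin, and TOX3 did not, with 0 counts and at most 6 counts in the 6 libraries. The keratins KRT7 (mean 4405 CPM in parental, 4059 in CD44v6), KRT19 (2521 and 2327) and KRT17 (1962 and 2011) were among the highest genes of their lists, and the epithelial adhesion gene EPCAM stood at 332 and 358. Many markers of other cells were at 0, but the fibroblast marker LUM (mean 176 CPM in parental, 156 in CD44v6) and the macrophage marker CD68 (11.8 and 11.1) were not. The summed level of 11 leukocyte markers ran from 11.1 to 12.9 CPM in parental and from 9.48 to 12.8 in CD44v6 libraries, nearly all of it CD68, with PTPRC, CD3D, MS4A1, CD14, TYROBP and FCER1G at 0 in all 6. The 8 endothelial markers summed to 1.52 to 2.08 CPM and 1.72 to 3.09 CPM, with KDR, TEK, ENG, EMCN and CLEC14A at 0. The 11 fibroblast markers summed to 168 to 198 CPM and 126 to 178 CPM, nearly all of it the small proteoglycan LUM, with DCN, PDGFRB, POSTN and THY1 at 0.

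Total counts of the 6 libraries ran from 17610543 to 22311461, with 19201 to 19773 genes detected in each. The biological coefficient of variation was 0.104 between parental and 0.138 between CD44v6 replicates. It was 0.2 between CD44 High and 0.145 between CD44 Low replicates, and 0.152 as a common value over the 12 libraries.

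In all, 96 of 15645 genes were called in RT-112 CD44v6 against parental cells (0.614%). Of the 45 higher genes (0.288%), the 8 with the largest increases were TNFAIP3, the pseudogene FABP5P9, KLF10, CSRNP1, HBEGF, the pseudogene KRT16P6, SGK1 and AREG, which rose by 1.03 to 1.88 on the log2 scale. Of the 51 lower genes (0.326%), 34 were small non-coding RNAs (spliceosomal, SNAR, Y, small nucleolar, 7SL, 7SK and transfer RNAs) and 17 were other genes. None of the higher genes was a small RNA. The groups did not overlap for 4036 genes (25.8%), which includes all 96 called.

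**Figure D1:**
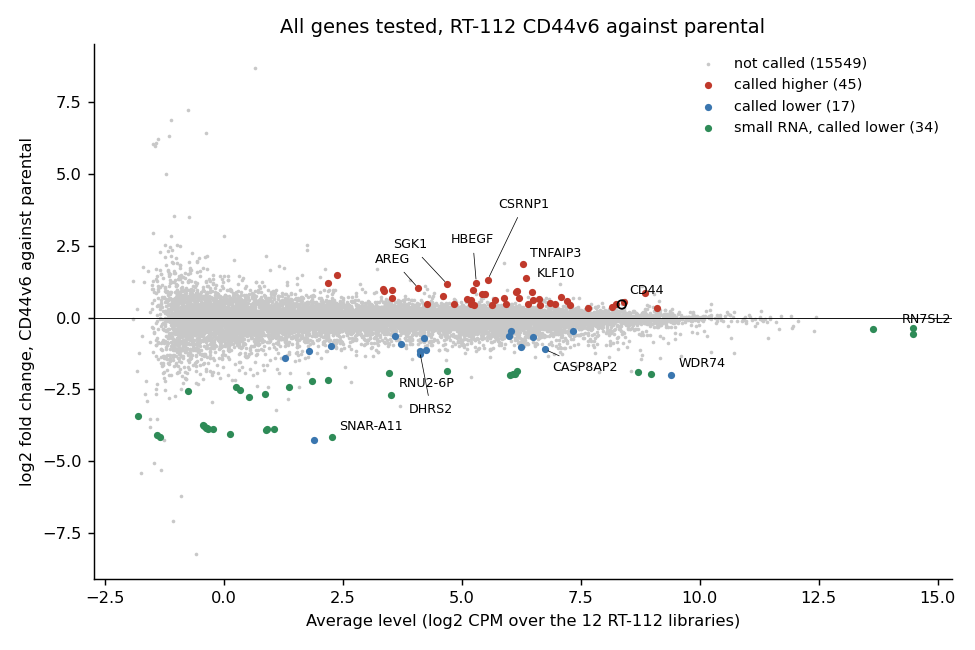
Each point is 1 of the 15645 genes tested, with its average level over the 12 RT-112 libraries in log2 CPM on the x axis and its log2 fold change in CD44v6 against parental cells on the y axis. Called higher genes are red, small RNAs called lower are green, other genes called lower are blue, and CD44 is ringed; the 45 red points lie at moderate to high levels, while the green points reach from small decreases at the highest levels to log2 changes near -4 at low levels.

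The number of calls depended on the fit. With the 6 libraries alone, 953 of 15066 genes were called (6.33%), 237 higher (1.57%) and 716 lower (4.75%), and DESeq2 on the 12 libraries called 599 (3.83%), 239 higher (1.53%) and 360 lower (2.3%). The 6-library fit called all 96 genes in the same direction, and DESeq2 called 81. Some of the rest, such as RNU2-61P, RNY3P1 and TRA-TGC7-1, were given no adjusted p by DESeq2. Leaving out 1 library gave 25 calls without parental replicate 2, 28 without CD44v6 replicate 1, 35 without parental replicate 3, 48 without parental replicate 1, and 52 and 55 without CD44v6 replicates 2 and 3. With the small RNA families left out before scaling, 30 genes were called, of which 24 were higher. In that setting 34 of the 96 genes were not tested, since they were left out.

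The first of the groups among the higher genes were ligands of the epidermal growth factor receptor, which are made as membrane-bound precursors and shed. HBEGF, the heparin-binding ligand, stood at 30.3, 20.3 and 20.7 CPM in parental and at 61.4, 45.5 and 58.9 CPM in CD44v6 libraries. It rose 2.33-fold (log2 1.22, SE 0.19, adjusted p = 0.0105 by edgeR). AREG, which encodes amphiregulin, stood at 12.5, 12.4 and 13.1 CPM in parental and at 31.4, 23.7 and 22.4 CPM in CD44v6 libraries. It rose 2.04-fold (log2 1.03, SE 0.19, adjusted p = 0.03 by edgeR). Every CD44v6 library lay above every parental one for both ligands. Of 10 tested genes of the receptor family and its ligands, these 2 rose and none fell, with a median log2 change of 0.27 against 0 over all genes. Of all genes tested, 0.288% were called higher and 0.326% lower. The receptor EGFR itself held 160, 173 and 156 CPM in parental and 196, 200 and 184 CPM in CD44v6 libraries (log2 0.25, SE 0.12, adjusted p = 0.338 by edgeR). Without parental replicate 2, the adjusted p became 0.0838 for HBEGF and 0.154 for AREG; HBEGF was called in 3 of the 6 fits that each left out a library, and AREG in 1.

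**Figure D2:**
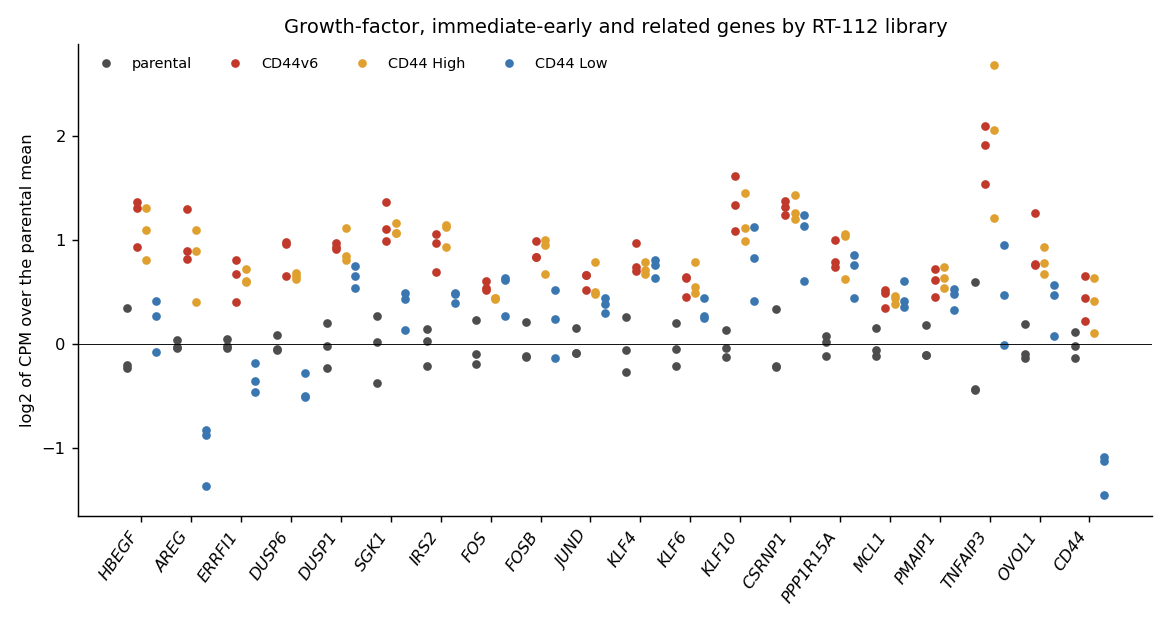
The y axis gives the log2 ratio of each library's CPM to the mean of the 3 parental libraries, for 19 genes called higher in RT-112 CD44v6 and for CD44, with 1 point per library and 4 groups of RT-112. The CD44v6 points lie above all parental points for each gene, and all CD44 Low points of AREG, ERRFI1, DUSP6 and CD44 lie below the parental mean.

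Feedback inhibitors of the receptor and of ERK rose as well. DUSP6, a phosphatase that acts on ERK in the cytoplasm, held 52.4, 52.2 and 57.8 CPM in parental and 107, 85.5 and 106 CPM in CD44v6 libraries. Its rise of 1.84-fold (log2 0.88, SE 0.1, adjusted p = 0.00147 by edgeR) had the smallest adjusted p among the genes called higher. ERRFI1, an inhibitor that binds the EGFR kinase domain, held 82.1, 77.5 and 78.5 CPM in parental and 127, 105 and 139 CPM in CD44v6 libraries. It rose 1.56-fold (log2 0.64, SE 0.1, adjusted p = 0.015 by edgeR). These 2 were the called members of 17 ERK feedback genes, against 0.288% of all genes called higher. The median log2 change of the list was 0.35. None fell, 15 were positive, and 5 rose in the 6-library fit, against 1.57% of all genes. The ERK-driven transcription factors ETV4 and ETV5 had changes of 0.27 and 0.12 that missed the threshold in both fits. DUSP1, a nuclear phosphatase of stress kinases, held 51.5, 44.0 and 38.1 CPM in parental and 85.3, 84.1 and 87.5 CPM in CD44v6 libraries. It rose 1.92-fold (log2 0.94, SE 0.12, adjusted p = 0.00237 by edgeR). DUSP6 and DUSP1 were called in all 6 fits that left out a library, ERRFI1 in 2, with an adjusted p of 0.0838 without parental replicate 2.

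Of 34 immediate-early genes, 9 rose and none fell (KLF10, CSRNP1, FOSB, PPP1R15A, KLF4, JUND, KLF6, FOS and MCL1). The median log2 change of the list was 0.47. In the 6-library fit 15 of 32 rose, against 1.57% of all genes. In the 12-library fit 0.288% of all genes were called higher. The list's summed level was 2890, 2634 and 2506 CPM in parental and 3809, 3758 and 3677 CPM in CD44v6 libraries. It was 3517, 4128 and 3370 CPM in CD44 High and 3685, 3727 and 3362 CPM in CD44 Low, so every derivative lay above the parental libraries. These share the parental libraries, so a change of the parental libraries and a change of the derivatives cannot be told apart. KLF10, a zinc-finger repressor induced by TGF-beta, held 46.6, 41.4 and 39.0 CPM in parental and 130, 107 and 90.3 CPM in CD44v6 libraries. It rose 2.58-fold (log2 1.37, SE 0.18, adjusted p = 0.00399 by edgeR). CSRNP1, a nuclear protein induced by AXIN1, held 29.4, 20.1 and 20 CPM against 60.2, 54.9 and 57.9 CPM, a rise of 2.49-fold (log2 1.32, SE 0.17, adjusted p = 0.00379). Both were called in all 6 fits that left out a library.

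AP-1 transcription factors, dimers of FOS and JUN proteins, were among these genes. FOSB held 69.8, 55.4 and 55.7 CPM in parental and 108, 120 and 108 CPM in CD44v6 libraries (log2 0.89, SE 0.15, adjusted p = 0.0189 by edgeR). FOS held 305, 243 and 228 CPM in parental and 377, 396 and 373 CPM in CD44v6 libraries (log2 0.56, SE 0.11, adjusted p = 0.0434 by edgeR). JUND held 75.1, 63.5 and 63.6 CPM in parental and 107, 97.0 and 107 CPM in CD44v6 libraries (log2 0.62, SE 0.1, adjusted p = 0.0153 by edgeR). In each of the 3, parental replicate 1 was the highest parental library and still lay below every CD44v6 library. JUNB, of the same family, held 174, 199 and 186 CPM in parental and 187, 206 and 171 CPM in CD44v6 libraries, so its groups overlapped (log2 0.01, SE 0.13, adjusted p = 0.982). EGR1, a zinc-finger factor often used as a readout of ERK, held 11.3, 13.0 and 9.39 CPM against 18.2, 24.1 and 15 CPM; its groups did not overlap, but the change of 0.77 (SE 0.28) had an adjusted p of 0.22, and 0.0332 in the 6-library fit. FOS and FOSB were each called in 1 of the 6 fits that left out a library and JUND in 2, and without parental replicate 2 the adjusted p became 0.222, 0.149 and 0.125.

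The remaining immediate-early genes that rose act in differentiation, stress and survival. KLF4, a factor of epithelial differentiation that is also used to reprogram cells, held 35.2, 24.3 and 28.3 CPM in parental and 57.7, 47.9 and 49.1 CPM in CD44v6 libraries (log2 0.82, SE 0.13, adjusted p = 0.0105 by edgeR). PPP1R15A, which restores translation after stress by recruiting a phosphatase to eIF2-alpha, held 307, 269 and 294 CPM in parental and 485, 504 and 580 CPM in CD44v6 libraries (log2 0.85, SE 0.13, adjusted p = 0.0105 by edgeR). KLF6 rose by 0.59 (SE 0.11, adjusted p = 0.0402) and MCL1, an inhibitor of apoptosis of the BCL2 family, by 0.46 (SE 0.09, adjusted p = 0.0429). PMAIP1, a pro-apoptotic partner of MCL1 and a p53 target, rose from 43.5, 35.5 and 35.5 CPM to 58.6, 52.4 and 63.0 CPM (log2 0.61, SE 0.11, adjusted p = 0.025 by edgeR). MCL1 and PMAIP1 were the 2 called among 19 apoptosis and p53 genes, whose median log2 change was 0.05, against 0.288% of all genes called higher. KLF4 was the only call among 11 tested stem-like genes, with a median of 0.2. KLF4 was called in 3 of the 6 fits that left out a library, PPP1R15A in 4, PMAIP1 in 2, and KLF6 and MCL1 in 1 each, with adjusted p of up to 0.0724, 0.077, 0.154, 0.197 and 0.2.

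TNFAIP3, a ubiquitin-editing enzyme that NF-kB induces and that shuts NF-kB off, had the largest increase of all called genes. It held 45.4, 22.1 and 22.2 CPM in parental and 113, 86.9 and 128 CPM in CD44v6 libraries. The rise was 3.68-fold (log2 1.88, SE 0.37, adjusted p = 0.0412 by edgeR), and parental replicate 1 had more than the other parental libraries. TNFAIP3 was called in 1 of the 6 fits that left out a library, and the adjusted p reached 0.203 without parental replicate 2. It was the only call among 23 NF-kB feedback and chemokine genes, whose median log2 change was 0.48. In the 12-library fit 0.288% of all genes were called higher. In the 6-library fit 8 of 22 rose and none fell, against 1.57% and 4.75% of all genes.

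Among the other NF-kB genes, NFKBIA, the inhibitor that holds NF-kB in the cytoplasm, stood at 80.8, 63.2 and 73.1 CPM in parental and at 192, 157 and 141 CPM in CD44v6 libraries. Its difference of 1.18 (SE 0.28) had an adjusted p of 0.0822, and 0.000526 in the 6-library fit. CXCL8, the neutrophil chemokine, stood at 3.70, 4.04 and 4.81 CPM against 16.8, 12.8 and 11.5 CPM (log2 1.71, SE 0.38, adjusted p = 0.0653, and 0.000546 in the 6-library fit). IL1B, a cytokine precursor, stood at 8.26, 4.69 and 5.37 CPM against 13.2, 13.5 and 9.78 CPM (log2 1.01, SE 0.22, adjusted p = 0.0603, and 0.0228 in the 6-library fit). In these 3 genes the groups did not overlap, as for 25.8% of all genes, and whether they passed depended on the fit. The chemokines CXCL1, CXCL2 and CXCL3 and the cytokine IL6 had a count of 0 in all 6 libraries.

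Promoters of the higher genes were searched for short motifs in the 250 bases before the RefSeq start, on both strands. The cyclic AMP response element TGACGTCA, the site of CREB and ATF factors, was present in 6 of the 34 higher genes with a promoter in the table (17.6%), in 362 of 10799 promoters of genes tested (3.35%) and in 2.03% of all 27305 promoters. The 6 genes were AREG, DUSP1, JUND, PPP1R15A, IFRD1 and LUZP1, the last pair named only for this match. A match of letters is a description and shows no binding. The AP-1 motif TGANTCA was in 5.88% of the higher genes and 6.38% of genes tested, the kB motif in 5.88% and 7.77%, the CArG box in 2.94% and 1.49%, and TATAAA in 23.5% and 8.21%. Of 15 promoters of lower genes outside the small RNAs, 3 held TATAAA, against 8 of 34 for the higher genes. TATAAA was therefore not particular to the higher genes. No other motif of the search was in any of these 15 promoters. Shown here are 3 genes of different roles that hold the element, a ligand, a phosphatase and a stress regulator, each 5′ to 3′ on its own strand with the element in capitals, from RefSeq on GRCh38.p14: AREG at chr4:74444886-74445135 on the plus strand (element 65 bases before the start), DUSP1 at chr5:172771196-172771445 on the minus strand (125 bases before) and PPP1R15A at chr19:48872171-48872420 on the plus strand (58 bases before).
AREG: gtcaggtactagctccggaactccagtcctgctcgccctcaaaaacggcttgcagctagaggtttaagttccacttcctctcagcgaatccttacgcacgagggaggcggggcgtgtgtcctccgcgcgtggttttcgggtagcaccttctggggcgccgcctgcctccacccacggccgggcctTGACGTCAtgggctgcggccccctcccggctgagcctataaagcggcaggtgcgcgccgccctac
DUSP1: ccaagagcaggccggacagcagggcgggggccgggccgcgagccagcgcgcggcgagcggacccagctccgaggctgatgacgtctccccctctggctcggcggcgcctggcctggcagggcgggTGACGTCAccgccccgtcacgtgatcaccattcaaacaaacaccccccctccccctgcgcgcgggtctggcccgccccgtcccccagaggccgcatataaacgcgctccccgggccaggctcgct
PPP1R15A: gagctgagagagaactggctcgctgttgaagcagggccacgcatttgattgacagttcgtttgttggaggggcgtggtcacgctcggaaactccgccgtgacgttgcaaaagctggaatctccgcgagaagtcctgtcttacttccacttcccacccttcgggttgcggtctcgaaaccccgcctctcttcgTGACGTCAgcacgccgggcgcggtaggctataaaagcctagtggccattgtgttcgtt

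TNFAIP3 is shown since it had the largest increase and is known as an NF-kB target. Its promoter, chr6:137867009-137867258 on the plus strand of GRCh38.p14, held 2 matches to the kB motif, 67 and 55 bases before the start, in capitals.
TNFAIP3: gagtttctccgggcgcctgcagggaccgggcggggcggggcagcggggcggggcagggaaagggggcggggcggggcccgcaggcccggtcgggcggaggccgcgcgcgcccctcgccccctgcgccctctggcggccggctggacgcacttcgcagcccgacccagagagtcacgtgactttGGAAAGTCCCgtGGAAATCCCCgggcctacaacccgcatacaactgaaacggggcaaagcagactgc

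Other genes among the 15 largest increases belong to hormone and insulin signalling, to epithelial identity or to pseudogenes. SGK1, a kinase downstream of PI3K and glucocorticoids, held 18.6, 11.9 and 15.6 CPM in parental and 39.9, 30.6 and 33.2 CPM in CD44v6 libraries. It rose 2.26-fold (log2 1.17, SE 0.16, adjusted p = 0.00399 by edgeR) and was called in all 6 fits that left out a library. IRS2, an adaptor of the insulin receptor, rose from 6.53, 5.51 and 7.08 CPM to 12.5, 10.3 and 13.3 CPM (log2 0.92, SE 0.14, adjusted p = 0.0105). OVOL1, a repressor that keeps epithelial cells epithelial, held 28.7, 23.6 and 23.0 CPM in parental and 60.3, 42.5 and 42.8 CPM in CD44v6 libraries (log2 0.95, SE 0.16, adjusted p = 0.0189). HTR7, a serotonin receptor, and SHISA2, an inhibitor of WNT and FGF receptor maturation, rose by 0.99 (SE 0.19, adjusted p = 0.0394) and 0.96 (SE 0.17, adjusted p = 0.0229). FABP5P9 and KRT16P6, which rose by 1.49 (SE 0.24, adjusted p = 0.015) and 1.22 (SE 0.23, adjusted p = 0.0327), are pseudogenes whose reads can come from their parent genes, and their values are uncertain. KRT16, the parent of KRT16P6, held 51.7, 59.7 and 51.7 CPM against 62.1, 44.6 and 49.7 CPM, which overlapped. Without parental replicate 2, IRS2, OVOL1, HTR7, SHISA2, FABP5P9 and KRT16P6 had adjusted p of 0.077, 0.127, 0.157, 0.136, 0.109 and 0.153.

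Lists for the identity of the cells held few calls. OVOL1 was the only call among 20 epithelial genes (median log2 change 0.08). None was called among 20 basal urothelial genes (median 0.2), 18 luminal urothelial genes (median -0.08), 14 mesenchymal genes (median -0.1) or 14 integrins (median -0.04). In the 6-library fit, the integrin chains ITGA6 and ITGB4, which pair to anchor basal cells to the basement membrane, rose. FN1, the matrix protein fibronectin and a mesenchymal-list gene, held 309, 364 and 294 CPM against 867, 689 and 510 CPM (log2 1.09, SE 0.23, adjusted p = 0.0521, and 0.00328 in the 6-library fit). ZEB1, a repressor of epithelial genes on the same list, held 1.39, 0.781 and 0.925 CPM against 0.220, 0.103 and 0.387 CPM (log2 -2.10, SE 0.65, adjusted p = 0.154, and 0.0438 in the 6-library fit). VIM stood between 0.884 and 2.36 CPM in all 6 libraries.

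**Figure D3:**
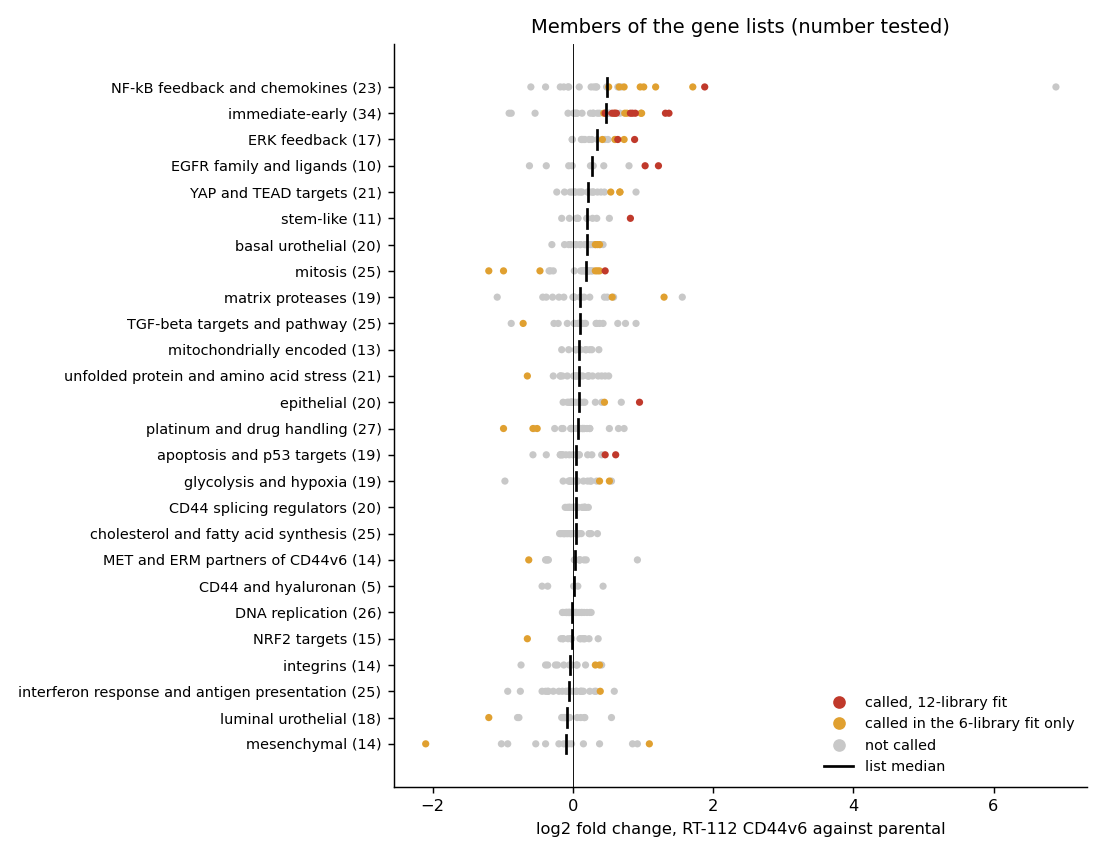
Each row is a gene list with the number of its members tested, and each point is a member's log2 fold change in RT-112 CD44v6 against parental cells; black bars are list medians. The NF-kB, immediate-early and ERK feedback lists have the highest medians (0.48, 0.47 and 0.35), and the called genes (red) sit in 8 lists, all to the right of 0.

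Partners of CD44v6 and the regulators of its splicing showed no call in the 12-library fit. MET held 271, 278 and 291 CPM in parental and 304, 306 and 246 CPM in CD44v6 libraries, so the groups overlapped (log2 0.03, SE 0.11, adjusted p = 0.948). None of 14 MET-pathway and ERM genes was called (median 0.03). In the 6-library fit 1 of 13 fell, ADAM10, a sheddase that cleaves CD44 (log2 -0.62, adjusted p = 0.00607 by edgeR). HGF, the ligand of MET, had a count of 0 in all 6 libraries. None of 20 splicing regulators was called (median 0.05); ESRP1, an epithelial splicing factor known to promote CD44 variant exons, held 212, 211 and 226 CPM in parental and 228, 220 and 213 CPM in CD44v6 libraries. Of the hyaluronan genes, the synthases HAS1 and HAS2 had a count of 0 in all 6 libraries.

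Proliferation, metabolism and drug handling held 1 call. UBE2C, which feeds ubiquitin to the anaphase-promoting complex, rose from 122, 114 and 119 CPM to 167, 167 and 154 CPM (log2 0.46, SE 0.09, adjusted p = 0.0399), and was called in none of the 6 fits that left out a library (adjusted p 0.0526 to 0.171). It was the only call among 25 mitosis genes (median 0.19). In the 6-library fit, AURKA, CENPA, TPX2 and UBE2C rose while CENPE, CENPF and TOP2A fell. CENPF and TOP2A have long transcripts (10307 and 5758 bases, 40.8% and 39.1% GC), and that of UBE2C is short (914 bases, 50% GC). What part transcript length and GC content have in this split was not tested. CENPF, a large kinetochore protein, held 1489, 1528 and 1556 CPM against 790, 678 and 519 CPM (log2 -1.20, SE 0.43, adjusted p = 0.2, and 0.000526 in the 6-library fit). BRCA2, a homologous recombination gene on the platinum and drug-handling list, held 119, 126 and 117 CPM against 62.9, 59.1 and 59.1 CPM (log2 -0.99, SE 0.27, adjusted p = 0.108, and 5.71e-05 in the 6-library fit). None was called among 27 platinum and drug-handling genes (median 0.07), 26 DNA replication genes (-0.01), 15 NRF2 targets (-0.02), 25 interferon genes (-0.05), 25 lipid synthesis genes (0.04), 19 glycolysis and hypoxia genes (0.05), 21 unfolded-protein genes (0.08), 25 TGF-beta genes (0.1), 21 YAP and TEAD targets (0.22), 19 matrix proteases (0.1) or 13 mitochondrially encoded genes (0.09).

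Of the 51 lower genes, 34 were small RNAs, out of 306 tested, against 0.326% of all genes called lower. In the 6-library fit they were 69 of 716 lower genes, and with DESeq2 47 of 360. U1 small nuclear RNA pairs with the 5′ splice site at the start of splicing, and its copies RNU1-1 to RNU1-4 were 4 of 10 tested U1 genes that fell. RNU1-1 held 145, 136 and 141 CPM in parental and 41.9, 19.2 and 55.3 CPM in CD44v6 libraries, a decrease of 3.63-fold (log2 -1.86, SE 0.31, adjusted p = 0.0189 by edgeR). The 4 genes have the same 164 bases in GENCODE 29 (0 differing bases in each pair) and nearly the same counts, so reads cannot be told apart between them. RNU1-1 lies at chr1:16514122-16514285 on the minus strand of GRCh38, and is shown 5′ to 3′ with bases 3 to 11, which pair with the 5′ splice site, in capitals.
RNU1-1: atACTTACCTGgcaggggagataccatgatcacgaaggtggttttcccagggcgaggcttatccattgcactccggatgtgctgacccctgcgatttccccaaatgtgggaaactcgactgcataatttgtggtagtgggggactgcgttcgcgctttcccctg

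Summed over the U1 family, parental libraries held 595, 557 and 561 CPM and CD44v6 libraries 171, 76 and 223 CPM. The U2 family, whose RNA pairs with the branch point, held 51.6, 26.6 and 25.5 CPM against 6.51, 2.94 and 8.84 CPM. In both families CD44v6 replicate 2 was the lowest and no CD44v6 library reached a parental one. RNU2-6P and RNU2-61P were 2 of 4 tested U2 genes that fell, RNU4-2 was 1 of 2 U4 genes (log2 -1.93, SE 0.28, adjusted p = 0.00827), and RNU11 of the minor spliceosome fell by 2.18 (SE 0.34, adjusted p = 0.011). No U5 gene of 5 and no U6 gene of 5 was called, with medians of -1.35 and -0.65. RNU4-2 and RNU2-6P were called in all 6 fits that left out a library, RNU1-1 and RNU11 in 2, with adjusted p of 0.0794 and 0.0688 without CD44v6 replicate 1, and RNU2-61P in none.

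SNAR genes encode short RNA polymerase III transcripts that bind the double-stranded RNA protein NF90. All 16 tested SNAR genes fell, with a median log2 change of -3.87. SNAR-A11, the highest of them, held 17.4, 15.6 and 15 CPM in parental and 1.10, 0.670 and 0.884 CPM in CD44v6 libraries, from 301, 340 and 324 counts against 25, 13 and 16. That was a decrease of 17.8-fold (log2 -4.16, SE 0.3, adjusted p = 5.59e-05 by edgeR). Copies of this family are near-identical, and several had the same counts in every CD44v6 library (SNAR-A8 and SNAR-A9 at 4, 2 and 3), so the 16 genes are not 16 separate measurements. The family's summed level was 68.2, 59.5 and 55.1 CPM in parental and 4.75, 4.17 and 4.64 CPM in CD44v6 libraries.

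**Figure D4:**
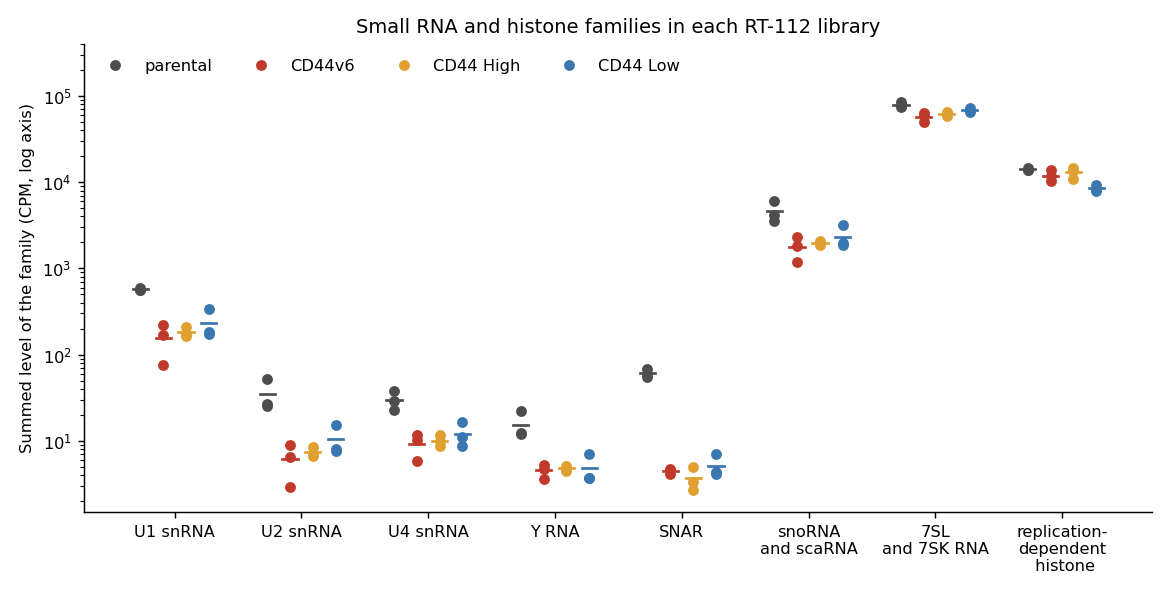
Summed CPM of 8 RNA families (log y axis) in each of the 12 RT-112 libraries, with a short line at the mean of each group of 3. For the U1, U2, U4, Y and SNAR families all 3 parental libraries lie above the 9 libraries of the CD44v6, CD44 High and CD44 Low lines.

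Other polymerase III and nucleolar RNAs were lower in part. The Y RNA RNY3, a component of the Ro particle, fell by 2.41 (SE 0.42, adjusted p = 0.0207) and RNY3P1 by 2.65 (SE 0.41, adjusted p = 0.0105), 2 of 3 Y genes tested. SNORD3A, a copy of the U3 RNA of ribosomal RNA processing, held 1122, 778 and 596 CPM in parental and 222, 105 and 351 CPM in CD44v6 libraries (log2 -1.88, SE 0.37, adjusted p = 0.0431). Of 156 small nucleolar and Cajal body RNAs, 4 fell and none rose (median -0.39). In the 6-library fit 28 of 143 fell, against 4.75% of all genes. RN7SL1, RN7SL2 and RN7SK fell by 0.37, 0.56 and 0.41 (adjusted p = 0.0347, 0.0434 and 0.0191), and the family's summed level was 74160 to 85061 CPM in parental and 49796 to 63056 CPM in CD44v6 libraries. One of 14 tRNA genes, TRA-TGC7-1, fell by 2.41 (SE 0.47, adjusted p = 0.0395). SNORD3A, RNY3 and TRA-TGC7-1 were each called in 1 of the 6 fits that left out a library, with adjusted p of up to 0.156, 0.111 and 0.169, and RN7SL1 and RN7SL2 in none. The replication-dependent histone genes, whose messages lack a poly(A) tail, had 55 of 59 negative changes with a median of -0.27, but none was called and 4 fell in the 6-library fit. All small RNA families together took 8.11% to 9.5% of parental counts and 5.69% to 7.04% of CD44v6 counts.

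The same families were low in every derivative of the line. U1 summed to 166, 207 and 171 CPM in CD44 High and to 183, 173 and 340 CPM in CD44 Low libraries. SNAR summed to 2.70, 5.01 and 3.34 CPM and to 4.39, 4.09 and 6.96 CPM. Between CD44v6 and CD44 High, where no gene at all was called (0% of 15645), the 34 small RNAs called lower had a median difference of -0.1. The parental libraries are shared by all such comparisons, so a change of the parental libraries and a change of the derivatives cannot be told apart.

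Outside the small RNAs, the largest decrease was that of ERV3-1-ZNF117, a readthrough transcript of an endogenous retroviral gene and a zinc-finger gene. It had 88, 84 and 126 counts (5.09, 3.86 and 5.83 CPM) in parental and 3, 7 and 5 counts (0.132, 0.361 and 0.276 CPM) in CD44v6 libraries, a decrease of 19.2-fold (log2 -4.26, SE 0.65, adjusted p = 0.0105 by edgeR). Its exons are shared with the 2 genes it joins, so the value is uncertain. WDR74 fell from 1468, 1337 and 1200 CPM to 339, 187 and 493 CPM (log2 -1.98, SE 0.26, adjusted p = 0.00399). Its exons overlap the U2 gene RNU2-2P on the same strand in GENCODE 29, no row of the table bears that name, and reads of the 2 cannot be told apart; CD44v6 replicate 2 was the lowest, as for U1 and U2.

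The other lower genes are protein-coding. DHRS2, a mitochondrial reductase, held 10.9, 11.6 and 10.9 CPM in parental and 5.94, 4.22 and 4.59 CPM in CD44v6 libraries (log2 -1.17, SE 0.15, adjusted p = 0.00369 by edgeR). WDR74 and DHRS2 were called in all 6 fits that left out a library. MAP2K6, a kinase that activates p38, held 14.1, 14.2 and 14.8 CPM against 7.04, 8.45 and 7.63 CPM (log2 -0.90, SE 0.15, adjusted p = 0.016). CASP8AP2, needed for histone gene expression and S phase, held 130, 145 and 152 CPM against 68.2, 62.0 and 68.6 CPM (log2 -1.10, SE 0.2, adjusted p = 0.0285).

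MAP9, a spindle protein that binds microtubules, fell by 1.25 (SE 0.25, adjusted p = 0.0433). LIN7A, a scaffold of cell polarity, fell by 1.39 (SE 0.27, adjusted p = 0.0394) from only 37 to 65 counts per parental library. ZRANB2, a splicing factor, and PLCG2, a phospholipase of immune receptors, fell by 0.68 (SE 0.13, adjusted p = 0.0402) and 0.64 (SE 0.13, adjusted p = 0.0434). PLCG2 exons overlap RN7SKP176, a gene of the 7SK family, on the same strand, and reads of the pair may not be told apart. HDX, ZDBF2, TMEM170B, FBXO30 and NAALADL2 fell by 0.64 to 1.17. CASP8AP2, MAP9, ZRANB2, HDX, ZDBF2 and NAALADL2 were called in none of the 6 fits that left out a library (adjusted p 0.0629 to 0.196), while MAP2K6, LIN7A, PLCG2, TMEM170B and FBXO30 kept it in 1 (up to 0.194).

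The lower genes outside the families had long transcripts of low GC content. Their median was 36.9% GC and 6852 bases (16 of 17 with a GENCODE transcript), against 48.2% and 3398 bases for all genes tested and 48.4% and 3324 bases for the higher genes. The 716 lower genes of the 6-library fit had the same feature, with 38.4% and 6246 bases outside the families. Over all 968 tested genes of at least 5000 bases and at most 40% GC, 817 had a negative change (median -0.33), 10 were called lower and none higher, and 311 were called lower in the 6-library fit. Among all 15645 genes tested, 7817 had a negative change and 0.326% were called lower, and 4.75% were called lower in the 6-library fit. The summed level of the 968 genes was 83462, 86717 and 89437 CPM in parental and 72946, 66499 and 61804 CPM in CD44v6 libraries, so the groups did not overlap. In CD44 High the sum was 85639, 59760 and 95348 CPM, with replicate 2 below every other RT-112 library. What part this shift of long, low-GC transcripts has in the lower calls was not tested.

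The CD44v6 line was also compared with CD44 High. No gene of 15645 was called between them (0%), with 665 at an unadjusted p under 0.05 by edgeR, and DESeq2 called 2. Without CD44 High replicate 2, edgeR called 431 genes, 2.09% of them higher in CD44v6. Of the 45 higher genes, 2 had an unadjusted p under 0.05 against CD44 High (median difference 0.03). Of the 17 lower genes outside the small RNAs, 8 did, with a median of -0.32, and none was called. Both sets were picked by their values in the same CD44v6 libraries. The median of the 17 therefore cannot show a difference between the 2 derivatives. ERV3-1-ZNF117 held 1.74, 0.731 and 5.55 CPM in CD44 High, above all 3 CD44v6 libraries, the last of them within the parental range. It differed by -3.41 (95% interval, not adjusted for the number of genes, -4.86 to -1.96) and was not called. It was itself picked for its low CD44v6 values. For the ligand HBEGF, CD44 High held 51.0, 59.1 and 41.8 CPM, within reach of the CD44v6 values, and CD44 Low held 28.8, 31.8 and 22.6 CPM. For AREG the values were 23.7, 16.8 and 27.2 CPM and 4.93, 7.20 and 6.96 CPM, so CD44 Low lay below the parental libraries.

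CD44v6 and CD44 Low differed at 2504 of 15645 genes (16%), of which 1247 were higher in CD44v6. Of the 45 genes higher than in parental cells, 29 were among those 1247, with a median difference of 0.54 over the 45. None of the 45 was lower than in CD44 Low. AREG was higher in CD44v6 than in CD44 Low by 2.03 (adjusted p = 0.000104), DUSP6 by 1.31 (adjusted p = 2.86e-05), HBEGF by 0.99 (adjusted p = 0.00486), ERRFI1 by 0.97 (adjusted p = 0.000165) and TNFAIP3 by 1.34 (adjusted p = 0.0263). For FOS, KLF4, MCL1, PPP1R15A, CSRNP1 and DUSP1 the differences from CD44 Low were 0.04, 0.08, -0.01, 0.15, 0.29 and 0.29 (adjusted p 0.105 to 0.959). FOS held 314, 398 and 402 CPM in CD44 Low and KLF4 45.7, 51.3 and 49.9 CPM, levels that overlapped those of CD44v6. Among the lower genes, DHRS2 held 49.6, 52.4 and 38.5 CPM in CD44 Low, above parental cells, and was lower in CD44v6 by 3.25 (adjusted p = 2.94e-07). The contrasts of CD44v6 with CD44 Low use the same CD44v6 libraries as the comparison with parental cells.

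J82, another bladder cancer line, has its own parental and CD44v6 libraries and so is independent of the RT-112 samples. Of the 45 genes higher in RT-112 CD44v6, 38 had a positive change in J82 CD44v6 and 20 were called higher there (2.7% of all 17438 genes were), in a fit on all 24 libraries. TNFAIP3 rose by 2.21 in J82 (adjusted p = 0.00317), CSRNP1 by 1.95 (adjusted p = 0.000787), FOSB by 2.60 (adjusted p = 4.24e-05), DUSP1 by 1.16 (adjusted p = 0.000202) and DUSP6 by 1.14 (adjusted p = 0.000391). HBEGF and AREG had changes of 0.84 and 3.24 in J82 that missed the threshold (adjusted p = 0.144 and 0.229). AREG was close to 0 in J82, with a mean of 0.0524 CPM in parental and 0.555 CPM in CD44v6 libraries, so its change (SE 1.5) rests on low counts. Of the 17 lower genes outside the small RNAs, 12 were negative in J82 and 1, VMP1, was called lower (1.54% of all genes were), with a median of -0.16 against -1.03 in RT-112. VMP1, an autophagy gene whose exons overlap the microRNA gene MIR21, was the gene so called and is named outside the rule for naming genes. Of 33 small RNAs tested in both lines, 25 were negative in J82 and 7 were called lower; RNU1-1 had a change of 0.49 there (adjusted p = 0.712).

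**Figure D5:**
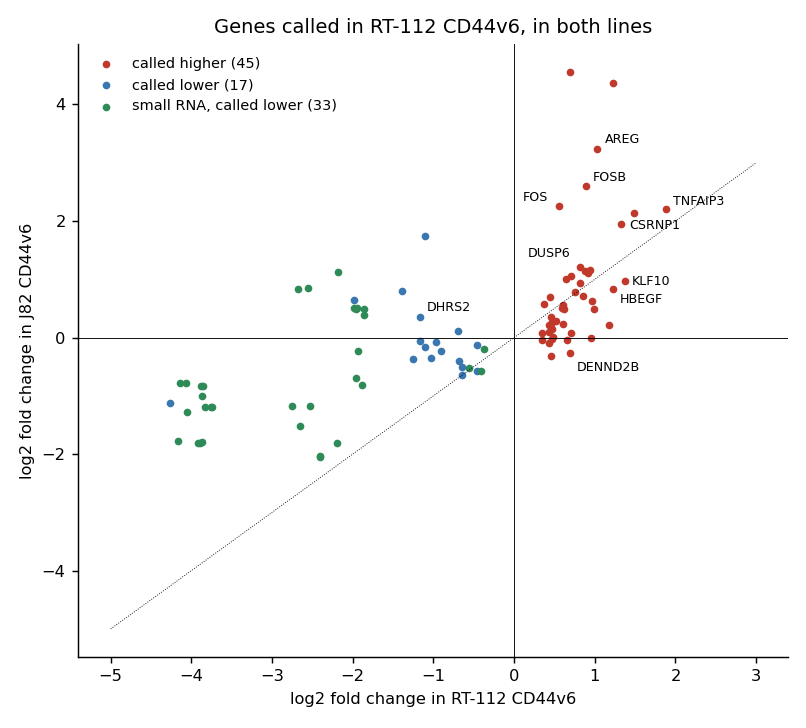
Each point is a gene called in RT-112 CD44v6 against parental cells, with its log2 fold change there on the x axis and in J82 CD44v6 on the y axis; the dotted line marks equal change. Most of the 45 higher genes (red) lie above 0 in J82 too. The small RNAs (green) have a median of -0.83 in J82 against -2.6 in RT-112, and the other lower genes (blue) -0.16 against -1.03, with single genes such as VMP1 at least as far from 0 in J82 as in RT-112.

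An interaction contrast tested whether the change in CD44v6 differs between J82 and RT-112, and 24 of 17438 genes passed (0.138%). Of the 96 genes called in RT-112, 3 were among them: FOS, DENND2B and HP1BP3, the last pair named only for this. FOS rose more in J82, from 34.3 to 163 CPM, than in RT-112, from 257 to 391 CPM (difference 1.64, SE 0.31, adjusted p = 0.0279 by edgeR). DENND2B, a RAB13 activator, rose in RT-112 and had a change of -0.26 in J82 (adjusted p = 0.201), with a difference between the lines of -1 (SE 0.17, adjusted p = 0.0159), and HP1BP3, a heterochromatin protein, differed by -0.56 (SE 0.11, adjusted p = 0.0398). For TNFAIP3, KLF10, CSRNP1, HBEGF, AREG and DUSP6 the differences between the lines were 0.28, -0.44, 0.58, -0.43, 2.18 and 0.22, and none passed (adjusted p 0.497 to 0.906); that of AREG (SE 1.66) is a fold over a level near 0 in J82. For RNU1-1 and WDR74 they were 2.31 and 2.58 (adjusted p = 0.22 and 0.169). Leaving out 1 library gave between 3 calls of this kind (without RT-112 parental replicate 2) and 217 (without J82 CD44v6 replicate 3).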

How the data were processed

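RNA sequencing of cell lines was analysed from 1 table in which the authors deposited raw counts per gene symbol. HISAT2, StringTie and GRCh37 are named in the submitters' processing notes, while their roles and versions, the annotation and the strand setting are not given in the sources used here. Replicates are called biological, but nothing says what was separate, so p-values measure only the spread between these samples. Total counts of the 6 libraries ran from 17610543 to 22311461, and no pair of replicates agreed within sampling noise (chi-square per degree of freedom 7.47 to 19.5).

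Counts were tested in R 4.3.3 with edgeR 4.0.16 (filterByExpr, TMM scaling, glmQLFit and glmQLFTest, group as the only term, 12 RT-112 libraries), two-sided, with Benjamini-Hochberg adjustment and a threshold of 0.05. CPM uses TMM-scaled library sizes. The alternatives were other scalings, filters and sets of libraries, DESeq2 1.42.0, a replicate block, a minimum fold change and leaving out each library; those within the 6-library fit were added after seeing the data. Steps were tested on simulated data. Plots used matplotlib 3.10.9 under Python 3.11.15.

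Named genes: CD44; the 15 largest increases and 15 largest decreases among called genes outside the small RNA families whose average log2 CPM reached 1 and whose groups did not overlap; list genes called; the highest members of lists with few calls; and the 3 highest called members of each family. Genes named for another reason were chosen after their values were seen. The members and lists were chosen with earlier results of these data known. Small RNA families were defined by symbol; GENCODE 29 gave lengths, GC content and overlaps. Results of some genes that met these rules are not reported here.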

Additional observations from a re-analysis of the deposited data

Results flagged for a closer look

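The change in CD44v6 against parental cells differed between J82 and RT-112 for 24 genes by the test of the difference itself (edgeR interaction, adjusted p under 0.05). Among the called genes that the rule for naming chose, FOS differed by 1.64 on the log2 scale (SE 0.31, adjusted p = 0.0279), with the larger increase in J82.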

How the results depend on the processing

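The 96 calls of RT-112 CD44v6 against parental cells became 30 with the small RNA families left out before scaling (24 higher, 6 lower), 60 without a low-count filter, 599 with DESeq2, 953 with the 6 libraries of the 2 groups, 237 with all 24 libraries, and 23 with a minimum log2 change of 0.5 (8.7% of them higher). Of the 96, 34 were small RNAs and so were not tested with these families left out. Leaving out 1 library gave 25 to 55. Median-of-ratios and upper-quartile scaling gave 114 and 116. The 953 calls of the 6-library fit became 366 to 1014 when 1 library was left out, and 24.9% of them were higher, against 46.9% of the 96. CD44 passed with the 6 libraries only (0.46, adjusted p = 0.0326) and kept its direction throughout, 0.34 to 0.57. Against CD44 High, 0 calls became 2 with DESeq2 and 0 to 431 when 1 library was left out. The 24 genes that differed between J82 and RT-112 became 444 with DESeq2, 335 with the 12 libraries of the 4 groups and 3 with a minimum log2 change of 0.5, and 3 to 217 when 1 library was left out. The share of those genes that was higher in J82 rose from 50% to 71% with median-of-ratios scaling. With a replicate block, 58 genes were called in RT-112, of which 54 were among the 96; same-numbered libraries had correlations of 0.08, -0.04 and -0.07, so they share only a number. None of these settings reversed the direction of a called result. For single genes the call was lost in 354 and gained in 79 of the alternative values, and the causes were not tested. Low depth, with 25 or fewer counts per CD44v6 library, limits values such as those of SNAR-A11 and LIN7A.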
